A study of Mus musculus with 12 samples.

Results

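The transcripts of 10 genes of lipid storage and fat cell formation were followed in tumourspheres of mouse mammary tumour cells, out of 55573 genes counted. They were found by gene symbol in the table of gene counts and comprised the perilipins Plin2, Plin3, Plin4 and Plin5, the transcription factors Pparg, Cebpa, Cebpb and Cebpd, and the lipid-handling genes Fabp4 and Lpl. The set was selected on measured values of these same libraries: Plin4 was chosen for its high level under both inhibitors against DMSO, and the other 9 genes were placed beside it for their known function. The question was whether the change in Plin4 was accompanied by other transcripts of a fat cell. Plin4 is therefore described without a test throughout.

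The cells were the spindloid (spindle-shaped, mesenchymal) lines A1005, A1129 and A1471, grown from mammary tumours of MMTV-Metmt;Trp53fl/+;Cre mice. All libraries, controls included, thus came from tumours of mice with the mutant Met transgene under the mammary-directed MMTV promoter. These mice also had a floxed Trp53 allele over a normal one, together with Cre. The study describes loss of Trp53 and amplification of the endogenous Met locus in this model. The labels do not give the state of either gene in these lines. Tumourspheres of each line received the vehicle DMSO, the Met kinase inhibitor Crizotinib, the FGF receptor kinase inhibitor PD173074, or both inhibitors (the combination) for 24 h, and each treatment had 1 library per line (n = 3 lines). The study's sphere medium, common to all groups, was serum-free and contained insulin, hydrocortisone, EGF and basic FGF. Nothing in the labels gives a second culture of any line, so p-values measure the spread between 3 lines, which also pair the libraries across treatments.

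RNA-sequencing counts per library totalled 13031492 to 17750476. Levels are given as CPM, counts scaled to the library's effective total, on which 3 counts equal 0.167 to 0.234 CPM depending on the library. The labelled cell identity was checked first. Vim, the intermediate filament of mesenchymal cells, had 1901 to 3200 CPM in the 12 libraries. The other mesenchymal markers were less even. Fn1 ranged over 377 to 5086 CPM, Twist1 over 44.5 to 132, Zeb1 over 52.8 to 102 and Zeb2 over 21.8 to 86.7. Snai2 had 0 counts in every A1005 library and at most 32 in any library of the other lines. Of the epithelial markers, Krt5 was at 0 counts throughout, Cdh1 and Krt14 had at most 9 and 11 counts in any library and Epcam at most 29, whereas Krt8 and Krt18 reached 611 and 748 counts. In bulk RNA, fewer cells of a type and less RNA per cell cannot be told apart.

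Fat cells keep triglyceride in lipid droplets whose surface is coated by perilipins. Plin2 and Plin3 coat droplets in most cell types, whereas Plin1 and Plin4 are known chiefly from white fat cells and Plin5 from oxidative tissues such as heart and liver. During differentiation of fat cell precursors in culture, Cebpb and Cebpd are induced early by hormones, including glucocorticoid, and are followed by Pparg and Cebpa, which maintain each other and switch on genes such as Fabp4, a carrier of fatty acids, Lpl, which frees fatty acids from lipoproteins, and Adipoq, a secreted hormone of mature fat cells.

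The sequences of 3 perilipin promoters are shown, as these are the perilipins whose transcripts were higher with the combination, beyond counting error, in all 3 lines. Each window holds the 250 bases before the annotated start, 5′ to 3′ on the strand of the gene, from RefSeq on GRCm38.p6. The windows are chr17:56109783-56110032 for Plin4, chr4:86670060-86670309 for Plin2 and chr17:56290512-56290761 for Plin3, all on the minus strand, and the last 21 bases of the Plin4 window and the last base of the Plin2 window are annotated as exon. The Plin3 window precedes a RefSeq start that lies inside the gene span given below (chr17:56277476-56292873). Bases before the outermost Plin3 start were thus not searched. Capitals mark a match to a motif.
Plin4: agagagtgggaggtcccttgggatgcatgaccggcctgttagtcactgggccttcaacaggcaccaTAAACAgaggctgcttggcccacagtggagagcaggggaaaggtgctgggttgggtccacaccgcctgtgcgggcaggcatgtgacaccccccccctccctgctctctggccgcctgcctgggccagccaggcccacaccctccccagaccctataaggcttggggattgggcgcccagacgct
Plin2: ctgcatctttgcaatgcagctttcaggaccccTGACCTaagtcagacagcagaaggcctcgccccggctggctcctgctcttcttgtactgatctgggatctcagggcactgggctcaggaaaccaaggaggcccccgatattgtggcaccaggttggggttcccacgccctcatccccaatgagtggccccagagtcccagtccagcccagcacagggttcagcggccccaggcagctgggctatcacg
Plin3: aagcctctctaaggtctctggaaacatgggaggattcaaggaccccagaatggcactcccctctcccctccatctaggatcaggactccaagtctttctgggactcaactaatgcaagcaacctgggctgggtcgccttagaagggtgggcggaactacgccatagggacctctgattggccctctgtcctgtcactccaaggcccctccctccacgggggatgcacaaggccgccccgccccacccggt

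The motifs were chosen after the values were seen and were searched on both strands of 32851 promoter windows of the same length. The nuclear receptor half-site AGGTCA was present in 14% of these windows, its direct repeat with 1 base between (which contains the half-site) in 0.0335%, the forkhead core TAAACA in 12%, the C/EBP palindrome TTGCGCAA in 0.164%, the E-box CACGTG in 6.02% and the glucocorticoid receptor half-site AGAACA in 16.1%. The Plin4 window holds 1 forkhead core, 184 bases before the start. The Plin2 window holds 1 half-site AGGTCA, which reads on the opposite strand (as TGACCT in the line above), 218 bases before the start, and the Plin3 window holds none of these letters. Windows were found for 7 of the 10 genes. Among those not printed, Pparg windows hold a forkhead core 120 bases before one start and half-sites AGGTCA 28 and 9 bases before other starts. A Plin5 window holds a half-site 170 bases before the start, and the Cebpa and Cebpb windows hold no match. Matches thus lay in windows of Plin4 and Plin2 and also of Pparg and Plin5, while those of Plin3 and Cebpa held none. Whether any of these motifs acts in these cells was not tested. Windows of Fabp4, Lpl and Cebpd were not among those found.

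Plin4, the perilipin of white fat cells, lies at chr17:56100591-56109803 on the minus strand (mm10). In DMSO tumourspheres it had 9, 9 and 0 counts in A1005, A1129 and A1471. With Crizotinib it had 8, 18 and 0 counts, with PD173074 104, 306 and 9 counts, and with the combination 433, 4600 and 16 counts. Every combination library was above every DMSO and Crizotinib library once scaled to CPM (1.21 to 288 against 0 to 1.19). At the near edge this order rests on the scaling: A1471 with the combination had 16 counts and A1129 with Crizotinib had 18. Under the combination A1129 stood at 288 CPM, A1005 at 24.0 and A1471 at 1.21.

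Against DMSO in the same line, Plin4 with the combination was 34.3-fold in A1005 (95% exact counting interval 17.9 to 75.4) and 487-fold in A1129 (256 to 1066). In A1471, where DMSO gave no count, it was at least 5.83-fold higher when DMSO is set to 3 counts in that library, and the 95% counting limit, which includes the error of its 16 combination counts, was 4.21-fold. With PD173074 alone the corresponding values were 8.95-fold (4.54 to 20.1), 37.0-fold (19.2 to 81.7) and at least 3.09-fold (counting limit 2.03). These intervals cover counting error only, since PCR copies were not marked by molecular identifiers. The fitted log2 fold change was 7.90 with the combination, 4.46 with PD173074 and 0.44 with Crizotinib. All are descriptions. The first was 5.14 without A1129, and the last rests on A1129, since without it the value was -0.34.

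The comparison of PD173074 with Crizotinib was added after the values were seen. Plin4 was higher with PD173074 than with Crizotinib by 11.5-fold in A1005 (5.62 to 27.3), 18.4-fold in A1129 (11.5 to 31.5) and at least 2.97-fold in A1471 (counting limit 1.95). The fitted log2 difference was 4.02. It too is given without a test, because Plin4 passed the filter on low counts through the libraries where it was high: of the 6 DMSO and Crizotinib libraries 1 had 10 counts or more.

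**Figure D1:**
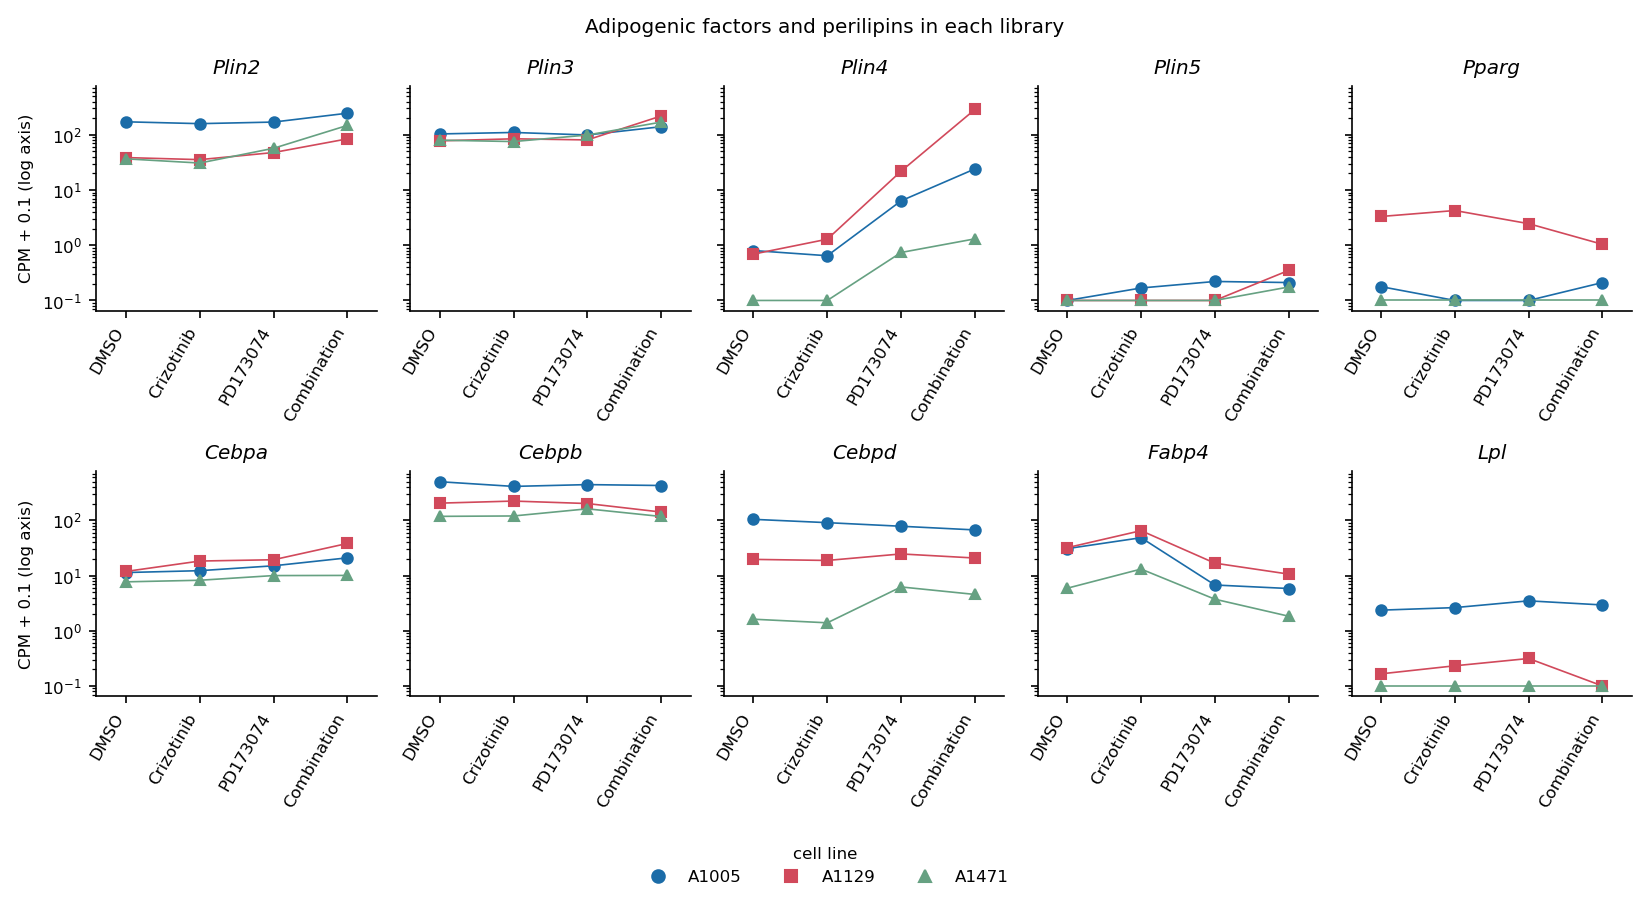
CPM plus 0.1 on a log axis for each of the 10 genes in the 12 libraries, with 1 point per library, treatments along the x axis and lines joining the libraries of 1 cell line. Plin4 is between 0 and 1.19 CPM with DMSO and Crizotinib and between 1.21 and 288 CPM with the combination, Plin5 stays at or below 4 counts, and Fabp4 is highest with Crizotinib in every line.

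Plin3, a perilipin of most cell types (chr17:56277476-56292873, minus strand), had 104, 77.7 and 80.0 CPM with DMSO in A1005, A1129 and A1471, and 140, 219 and 170 CPM with the combination. The treatments did not overlap, and every line moved the same way, by 1.35-fold, 2.82-fold and 2.12-fold. Plin3 rose by a log2 fold change of 1.02 ± 0.21 (SE, n = 3 lines), with an adjusted p of 0.012 (unpaired edgeR quasi-likelihood test, Benjamini-Hochberg adjustment over all 13836 genes tested), and of the genes other than Plin4 it alone passed the threshold of 0.05 in this fit. The call was lost without A1129 (log2 fold change 0.77, adjusted p 0.18) and without A1471 (1.0, adjusted p 0.19) in the unpaired fit. With Crizotinib alone Plin3 had 110, 84.6 and 75.4 CPM, and with PD173074 alone 99.3, 80.8 and 99.0 CPM, both overlapping DMSO.

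Plin2, the other widely used droplet coat protein (chr4:86648386-86670060, minus strand), had 172, 38.6 and 36.6 CPM with DMSO and 246, 84.4 and 148 CPM with the combination. The treatments overlapped, with A1005 above the other lines under DMSO, yet each line was higher with the combination, by 1.43-fold, 2.18-fold and 4.04-fold. Plin2 had a log2 fold change of 0.95 ± 0.85 (SE, n = 3 lines; edgeR unpaired, adjusted p 0.52) and rose by 1.25 ± 0.25 with the cell line as a block (adjusted p 0.0020). Without A1005 it also passed unpaired, at 1.64 with an adjusted p of 0.020.

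Plin5, the perilipin of oxidative tissues, had 0 to 4 counts in every library and was not tested. Its gene lies 1.80 kb from that of Plin4, on the same strand.

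The make-up of the perilipin pool was compared as CPM per kb of merged exon, since Plin4 has the longest exons of the 4 genes (5777 bases). The sum over the 4 perilipins was 76.5, 31.6 and 31.5 CPM per kb with DMSO in A1005, A1129 and A1471, and 111, 132 and 87.2 with the combination. Plin4 made up 3.74%, 37.8% and 0.239% of the sum with the combination, against at most 0.324% with DMSO. On this measure Plin4 ranked second in A1129, behind Plin3 at 43.9% and ahead of Plin2 at 18.2%. In A1005 and A1471 Plin2 and Plin3 made up nearly the whole sum. The shares depend on the length used. Merged exons of Plin2 span 3512 bases against 1888 in its longest transcript, and those of Plin4 5777 against 5756. The share of Plin2 would thus be larger by transcript length, on which the order of Plin2 and Plin4 was not computed. Of the 50-base windows in the longest Plin4 transcript, 17.4% occur more than once within it, and how reads with several matching places were counted is not given in the sources used here.

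**Figure D2:**
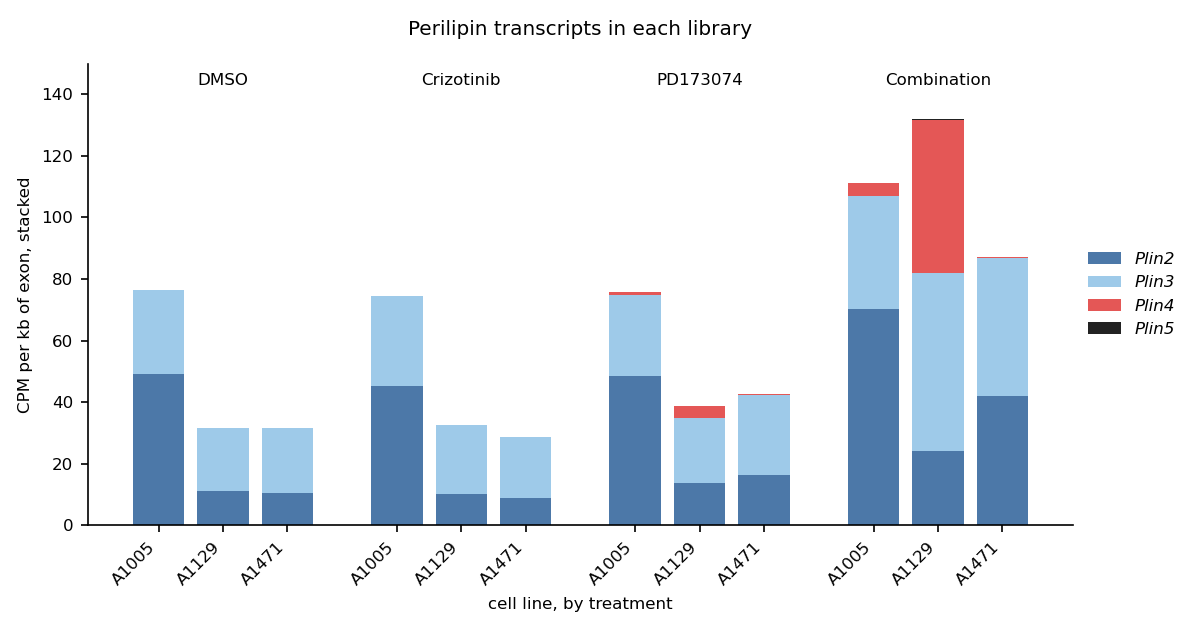
Stacked CPM per kb of exon for Plin2, Plin3, Plin4 and Plin5, with 1 bar per library, grouped by treatment. The combination bars reach 111, 132 and 87.2 in A1005, A1129 and A1471, and the Plin4 segment is large in A1129 (37.8% of the bar) and barely visible in A1471 (0.239%).

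Pparg, the nuclear receptor required for fat cell formation (chr6:115360951-115490399, plus strand), was close to absent. It had 0 to 2 counts in each A1005 library and 0 counts in each A1471 library. In A1129 it had 49 counts with DMSO, 63 with Crizotinib, 33 with PD173074 and 15 with the combination. In the line with the most Plin4, Pparg was thus lowest with the combination, at 0.292 of its DMSO level (counting interval 0.152 to 0.529), and the fit over all lines gave a log2 fold change of -1.62 ± 2.51 (SE, n = 3 lines; edgeR unpaired, adjusted p 0.74). Its isoforms are not separated in gene counts.

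Cebpa, the partner of Pparg in the mature fat cell (chr7:35119293-35121928, plus strand), had 11.2, 11.8 and 7.59 CPM with DMSO, 12.1, 18.2 and 8.11 with Crizotinib, 14.9, 19.2 and 9.88 with PD173074 and 20.8, 38.0 and 9.95 with the combination. DMSO and combination libraries overlapped through A1471, where the ratio was 1.31, against 1.85 in A1005 and 3.23 in A1129. The log2 fold change of Cebpa with the combination was 1.17 ± 0.48 (SE, n = 3 lines; edgeR unpaired, adjusted p 0.14), and it rose by 1.03 ± 0.21 with the block (adjusted p 0.0021).

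The early factors Cebpb and Cebpd did not pass in any comparison, unpaired or with the block. Cebpb had 500, 205 and 118 CPM with DMSO and 427, 141 and 117 CPM with the combination, a log2 fold change of -0.26 ± 0.70 (SE, n = 3 lines; edgeR unpaired, adjusted p 0.86). Cebpd had 104, 19.5 and 1.52 CPM with DMSO and 66.9, 20.7 and 4.45 CPM with the combination, so that it was lower in A1005 and higher in A1471. Its log2 fold change was -0.44 ± 1.59 unpaired (adjusted p 0.90) and 0.05 ± 0.38 with the block (adjusted p 0.93).

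Per kb of exon, Cebpb made up 82.5% to 96.0% of the sum of the 3 C/EBP transcripts in every library, and Cebpa 3.06% with DMSO and 12.7% with the combination in A1129. In A1005 the share of Cebpa was 1.17% with DMSO and 2.55% with the combination, and in A1471 3.52% and 4.55%. Exons of Cebpb and Cebpd overlap those of Tmem189 and Spidr on the opposite strand by 312 and 562 bases, and the strand setting of the counting is not given in the sources used here, so reads of the pairs cannot be told apart.

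Fabp4, the fatty acid carrier of fat cells and macrophages (chr3:10204088-10208576, minus strand), went the other way. It had 30.6, 31.9 and 5.79 CPM in vehicle spheres against 5.72, 10.5 and 1.73 CPM with both inhibitors. Treatments overlapped between lines, but within a line the combination left 0.187, 0.330 and 0.299 of the DMSO level. Fabp4 had a log2 fold change of -1.92 ± 0.89 (SE, n = 3 lines; edgeR unpaired, adjusted p 0.19) and fell by 1.94 ± 0.25 with the block (adjusted p 0.00015).

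With PD173074 alone Fabp4 had 6.64, 16.7 and 3.63 CPM, and it fell with the block by 1.31 ± 0.24 on the log2 scale (adjusted p 0.025; edgeR unpaired, -1.34, adjusted p 1.0). The blocked call was lost when any 1 line was left out, with adjusted p-values from 0.085 to 0.19. With Crizotinib alone it had 48.3, 64.9 and 13 CPM, above DMSO in all 3 lines by 1.58-fold, 2.04-fold and 2.24-fold, each beyond counting error. The log2 fold change was 0.89 ± 0.87 (SE, n = 3 lines), which did not pass in edgeR without the block (adjusted p 1) or with it (adjusted p 1.0). Fabp4 was lower with PD173074 than with Crizotinib by a log2 difference of -2.22 ± 0.24 with the block (adjusted p 0.0017), and -2.23 unpaired (adjusted p 1.0).

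Markers of macrophages, which also express Fabp4, were mixed. Tyrobp and C1qa were at 0 counts in every library, and Adgre1, Itgam, Csf1r and Fcer1g had at most 1, 2, 5 and 6 counts. Ptprc, carried by all white blood cells, had 174 to 339 counts in the A1005 libraries and at most 2 in the other lines, and Mrc1 had 1 to 37 counts. The 9 macrophage markers summed to 6.0 to 34.0 CPM with DMSO and 8.44 to 42.3 CPM with the combination, most of it from Cd68, a lysosomal protein found in other cells too, and, in A1005, Ptprc. Of the 3 macrophage markers tested, Mrc1 fell unpaired (log2 fold change -3.82) and Cd68 rose with the block. The part of these cells in the Fabp4 values was not tested. Endothelial cells likewise carry Fabp4, and their 7 markers summed to at most 13 counts in any library, with Cldn5 at 0.

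Lpl, the secreted lipase (chr8:68880491-68907448, plus strand), had 29, 37, 56 and 51 counts in A1005 with DMSO, Crizotinib, PD173074 and the combination, at most 3 counts in A1129 and 0 in A1471. Its log2 fold change with the combination was 0.31 ± 2.36 (SE, n = 3 lines; edgeR unpaired, adjusted p 0.96). Its values thus describe A1005 alone.

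**Figure D3:**
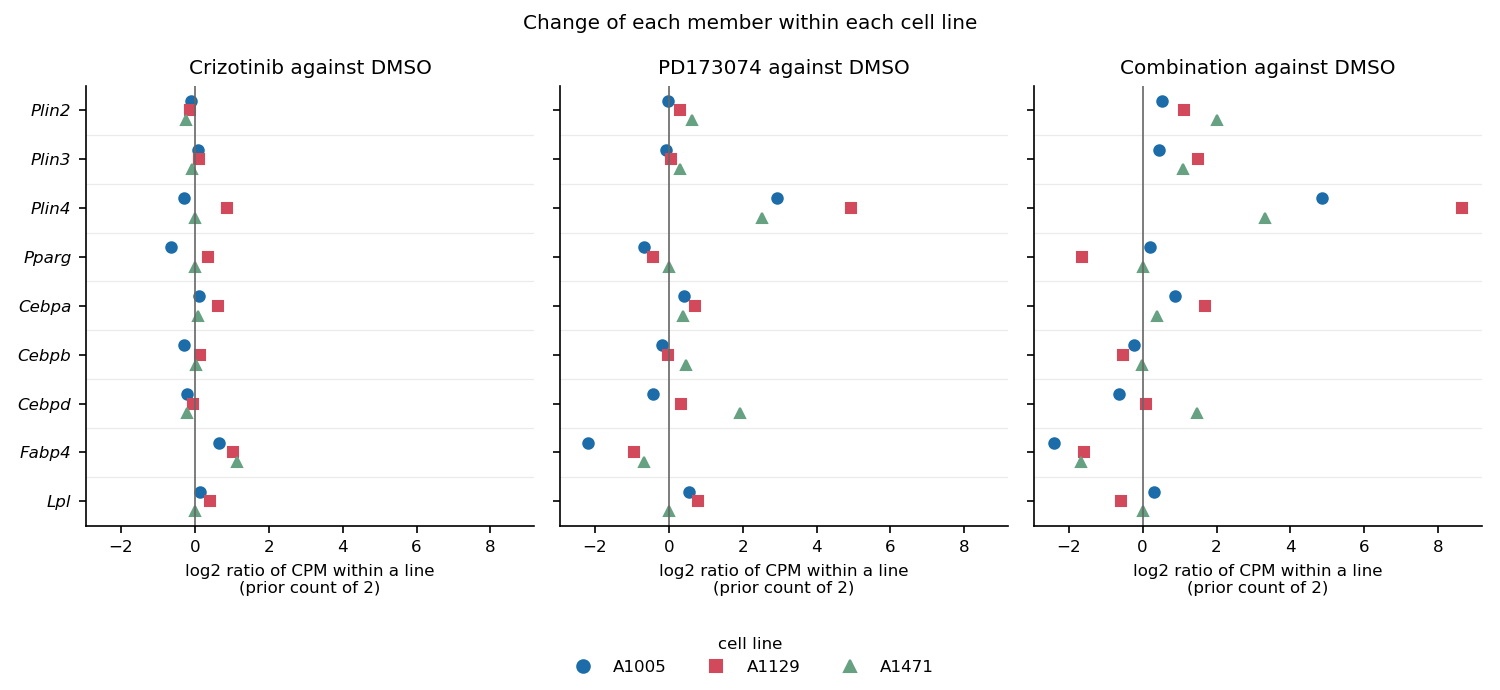
Log2 ratio of CPM (prior count of 2) of each inhibitor treatment to DMSO within each cell line, for the 9 genes that were tested, with 1 point per line. With the combination Plin2, Plin3, Plin4 and Cebpa lie above 0 and Fabp4 below 0 in all 3 lines, whereas the lines of Cebpd fall on both sides of 0, from -0.64 to 1.47.

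For the combination against DMSO, 8 of the 9 genes other than Plin4 passed the filter on low counts, Plin5 being the exception. Among the 8 genes 1 was called unpaired (Plin3, higher), where 14.4% of all 13836 genes tested were called, 6.1% higher and 8.28% lower. With the block 4 were called, Plin2, Plin3 and Cebpa higher and Fabp4 lower, where 54.8% of all genes were called, 28.6% higher and 26.2% lower. The median log2 fold change of the 8 genes was 0.02 unpaired, and the median of all genes tested was also 0.02. Nothing is read from these counts, because the set was chosen from this comparison.

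Against DMSO, Crizotinib gave 0 calls among the 8 genes with edgeR, unpaired or with the block, and 0 with DESeq2, while 0% of all genes were called either way. At an unadjusted p under 0.05 the counts were 0 unpaired, 1 with the block (Fabp4) and 0 with DESeq2. PD173074 gave 0 calls unpaired, where 0% of all genes were called (0 at an unadjusted p under 0.05, and 0 calls with DESeq2), and 1 with the block (Fabp4), where 2.14% were called. PD173074 against Crizotinib gave 0 calls unpaired (1 at an unadjusted p under 0.05, and 0 calls with DESeq2) and 1 with the block (Fabp4), where 0% and 4.22% of all genes were called.

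When PD173074 was added to Crizotinib, Plin3 rose by a log2 fold change of 0.97 ± 0.21 (SE, n = 3 lines; edgeR unpaired, adjusted p 0.016) and was the 1 gene of 8 called, where 13.2% of all genes were called. That call too was lost without A1129 or A1471 (adjusted p 0.18 and 0.23). With the block 4 of 8 were called, where 53.4% of all genes were. They were Plin2 at 1.40, Plin3 at 0.99, Cebpa at 0.76 and Fabp4 at -2.85, with adjusted p-values of 0.0011, 0.0017, 0.010 and 1.6e-05. DESeq2 called Plin3 and Fabp4. Plin4 was 44.0-fold in A1005, 243-fold in A1129 and at least 5.60-fold in A1471 (counting limit 4.05) in this comparison.

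When Crizotinib was added to PD173074, Plin3 rose by 0.92 ± 0.21 (SE, n = 3 lines; edgeR unpaired, adjusted p 0.037), again 1 of 8 genes, where 4.77% of all genes were called. The call was lost when genes with low counts were kept in the fit (adjusted p 0.081) and without A1129 or A1471. With the block 2 of 8 were called, Plin2 at 0.96 and Plin3 at 0.93, where 39.8% of all genes were, and 0 of 8 when A1129 was left out as well. Fabp4 had a log2 difference of -0.63 ± 0.26 with the block (adjusted p 0.075), Cebpa one of 0.54 ± 0.20 (adjusted p 0.058), and Plin4 was 3.83-fold in A1005, 13.2-fold in A1129 and 1.88-fold in A1471 (counting interval 0.784 to 4.84).

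The departure from additivity asks whether the combination differs from the sum of both single changes on the log2 scale. In the unpaired edgeR fit 0 of the 8 genes were called (1 at an unadjusted p under 0.05, and 0 calls with DESeq2), where 0.918% of all genes were. With the block 2 were called, where 16.2% were, namely Plin3, at 0.88 ± 0.27 above the sum (adjusted p 0.049), and Fabp4, at -1.54 ± 0.34 (adjusted p 0.017). Both of these calls were lost without A1129 and without A1471. The corresponding value of Plin2 was 1.11 ± 0.35 (adjusted p 0.056) and that of Cebpa 0.26 ± 0.29 (adjusted p 0.57), both with the block, and the value of Plin4, 3.00 unpaired, is a description. The comparisons above share DMSO, single-inhibitor or combination libraries and are therefore not independent of each other.

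The other genes of fat cell formation and fat use were read from 9 lists of 117 genes. Mature fat cell transcripts were looked for in 16 genes, of which 15 had at most 3 counts in any library and 7 had none in all 12 libraries. Adipoq and Lep, the hormones of fat cells, were at 0 throughout, with Cfd, Adrb3, Aqp7, Pck1 and Lgals12. Plin1, the main droplet coat of white fat cells, had 1 count in the 12 libraries together and Cidec, a droplet fusion protein, had 2. A count of 0 in a library allows up to 3 counts, so levels of up to 0.234 CPM were not detectable at this depth.

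The exception was Gpd1, an enzyme that makes glycerol phosphate for triglyceride, with 4 to 24 counts per library and a log2 fold change of 0.55 ± 0.66 (SE, n = 3 lines; edgeR unpaired, adjusted p 0.65). The 16 genes summed to 5 to 12 counts per library with DMSO and 5 to 29 with the combination.

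Among 16 other genes that promote fat cell formation, 12 were tested. With the combination 0 rose and 1 fell, unpaired and in DESeq2 alike, and 4 rose and 1 fell in the blocked fit. The edgeR shares over all genes were 6.1% higher and 8.28% lower unpaired, and 28.6% and 26.2% with the block. Their median log2 fold change was -0.03 unpaired, beside 0.02 over all genes tested. Klf5, an early activator of Pparg, fell from 73.8, 68.6 and 54.8 CPM with DMSO to 27.7, 31.9 and 12.8 CPM (log2 fold change -1.44 ± 0.31, edgeR unpaired, adjusted p 0.015). Klf9, Stat5a and Rxra, the partner receptor of Pparg, rose with the block by 0.93, 1.85 and 0.53.

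Of 9 genes known to hold back fat cell formation, 8 were tested. In the unpaired fit 0 were called by edgeR, with 2 at an unadjusted p under 0.05 (Klf2 and Sox9), both of which DESeq2 called, and the median log2 fold change was 0.89. With the block 6 rose and 1 (Gata2) fell. Over all genes 14.4% were called unpaired, and with the block 28.6% were called higher and 26.2% lower. Klf2, a repressor of Pparg, had 12.1, 35.1 and 15.8 CPM with DMSO against 15, 189 and 136 CPM with both inhibitors (2.14 ± 0.47 with the block, adjusted p 0.0032), and Wnt10b, a Wnt ligand that keeps precursors undifferentiated, rose by 2.12 ± 0.27 with the block (adjusted p 0.00015).

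Of 12 paralogs of the 10 genes 6 were tested, with a median of -0.42. In edgeR and in DESeq2 0 rose and 1 fell unpaired, with 1 at an unadjusted p under 0.05, and 0 rose and 3 fell with the block. Beside these, edgeR called 8.28% of all genes lower unpaired and 26.2% with the block. Lipg, the endothelial lipase related to Lpl, fell from 29.7, 38.8 and 47.3 CPM to 11.7, 11.1 and 6.03 CPM (log2 fold change -2.01 ± 0.32, edgeR unpaired, adjusted p 0.0037). Fabp5, a carrier closely related to Fabp4, had a log2 fold change of -0.20 ± 0.28 (adjusted p 0.72). Ppard, the widely expressed relative of Pparg, fell with the block by 0.39 (adjusted p 0.021).

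Triglyceride synthesis and droplet genes were split. Of 18 genes 16 were tested, with a median log2 fold change of 0.11. Unpaired, 1 (Cideb) was called higher and 1 lower, and with the block 4 (Cideb among them) were called higher and 2 lower. The shares of all genes were 6.1% higher and 8.28% lower unpaired, and 28.6% and 26.2% with the block. Hilpda, a droplet protein that inhibits lipolysis, fell by 0.96 ± 0.21 (edgeR unpaired, adjusted p 0.017). Cideb, a droplet protein of liver, had 0 to 3 counts with DMSO and 16 to 21 counts with the combination, and since it passed the filter on low counts only through the combination libraries, its call gives no support. Dgat1, which completes triglyceride synthesis, rose by 0.64 with the block (adjusted p 0.014).

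Of 7 lipolysis genes 6 were tested, with a median of 0.78. Unpaired 2 rose and 0 fell, where 6.1% of all genes were called higher, and with the block 3 rose and 0 fell, where 28.6% were called higher. The other 3 passed in neither fit. Pnpla2, the first lipase of droplet breakdown, rose from 19.3, 38.4 and 30.0 CPM to 57.3, 129 and 82.3 CPM without overlap (log2 fold change 1.62 ± 0.41, edgeR unpaired, adjusted p 0.029). Lipa, the acid lipase of lysosomes, rose from 39.9 to 63.6 CPM with DMSO to 159 to 213 CPM with the combination (1.84 ± 0.22, adjusted p 0.00097). Abhd5, the activator of the Pnpla2 lipase, which perilipins hold at the droplet, rose with the block by 0.96 ± 0.13 (adjusted p 0.00017).

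Of 19 fatty acid oxidation genes and known targets of PPAR receptors 15 were tested, with a median of 0.66. Unpaired 4 rose and 0 fell, and with the block 11 rose and 1 (Ucp2) fell, beside the same 6.1% and 28.6% of all genes called higher. The list as a whole was not tested. Acadm, a dehydrogenase of medium-chain fatty acids, rose from 73.5, 53.2 and 48.5 CPM to 236, 211 and 155 CPM (1.78 ± 0.29, edgeR unpaired, adjusted p 0.0037). Slc25a20 (1.14), Acaa2 (0.98) and Acadvl (0.50), all of mitochondrial oxidation, also rose, with adjusted p-values of 0.0090, 0.049 and 0.022.

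With the block Cpt1a, which commits fatty acids to oxidation, rose by 3.06 ± 0.50 and Pdk4, which restrains glucose oxidation, by 3.62 ± 0.51. The Pdk4 value rests on A1005 (36 counts with DMSO, 308 with the combination) and A1129 (9 and 264). In A1471 Pdk4 had at most 1 count in any library. Angptl4, a secreted inhibitor of Lpl and a classic PPAR target, had 300, 6 and 1 counts in vehicle spheres against 1465, 78 and 1626 under both inhibitors. Its log2 difference of 4.83 with the block is a description. It passed the filter on low counts only with the help of PD173074 and combination libraries, where it was high. Its call with the block, counted in the oxidation list above and the uptake list below, thus gives no support. A1471, the line with least Plin4, changed most.

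Uptake and activation genes moved both ways. Of 17 genes 12 were tested, with a median of 0.13, and 1 rose and 0 fell unpaired, 4 and 3 with the block. Among all genes 6.1% were called higher and 8.28% lower unpaired, and 28.6% and 26.2% with the block. Slc27a1, a fatty acid transporter, rose by 0.91 ± 0.26 (edgeR unpaired, adjusted p 0.044), and Acsl4 and Acsl5, which activate fatty acids, fell with the block by 0.87 and 0.70.

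Of 10 glucocorticoid-responsive genes, all tested, 3 rose and 0 fell unpaired and 6 rose and 0 fell with the block, with a median of 0.80. Over all genes tested, 6.1% were called higher unpaired and 28.6% with the block. This list as a whole was not tested. The medium of every group held hydrocortisone. Tsc22d3, a standard glucocorticoid target, rose from 93.4, 56.1 and 76.4 CPM to 283, 432 and 348 CPM (2.23 ± 0.31, edgeR unpaired, adjusted p 0.0019). Zbtb16 and Per1 rose by 1.91 and 1.06 (adjusted p 0.0052 and 0.039), whereas Sgk1, another such target, had a log2 fold change of -0.17 (adjusted p 0.87) and the receptor gene Nr3c1 had -0.08 (adjusted p 0.78).

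With either inhibitor alone against DMSO, 0 genes of the 9 lists passed unpaired in edgeR or in DESeq2. With the block 0 passed under Crizotinib, where 0% of all genes were called. Under PD173074 Wnt10b and the glucocorticoid-responsive gene Dusp1 rose with the block, where 2.14% of all genes were called. At an unadjusted p under 0.05 and without the block, PD173074 gave 1 paralog, 1 triglyceride and droplet gene, 1 lipolysis gene and 2 glucocorticoid-responsive genes, and Crizotinib gave 0 in every list.

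**Figure D4:**
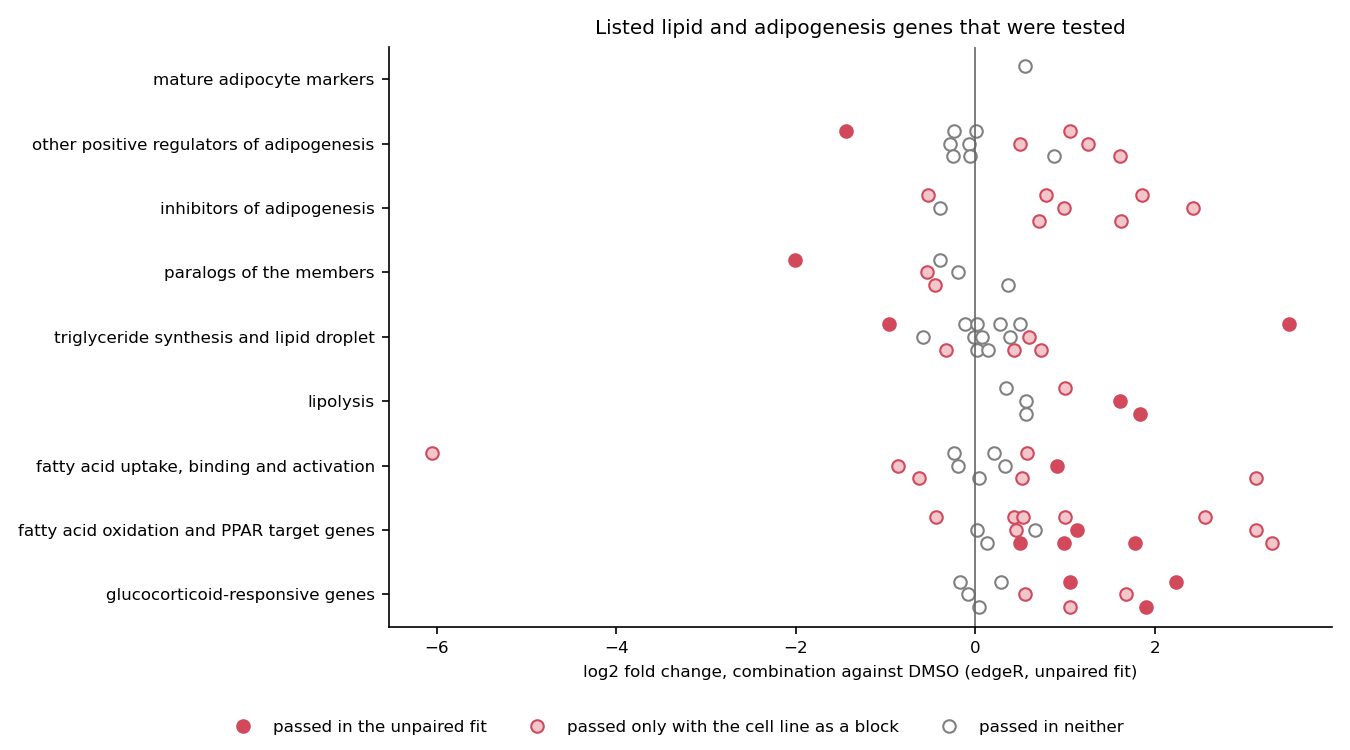
Log2 fold change of the combination against DMSO (edgeR, unpaired) for every tested gene of the 9 lists, with 1 point per gene, filled where the gene passed an adjusted p of 0.05 unpaired, pale where it passed only in the blocked fit and open otherwise. A gene on 2 lists is drawn in both. The 1 tested marker of mature fat cells, Gpd1, is open, and 4 filled points of the fatty acid oxidation list lie above 0.

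Precursor cells of fat were looked at through 8 markers of preadipocytes and fibroblasts. Of these 6 were tested, 0 passed unpaired in edgeR (Pdgfrb was under an unadjusted p of 0.05, and DESeq2 called it), and 4 rose and 1 (Cd34) fell with the block. In edgeR 14.4% of all genes were called unpaired, and with the block 28.6% were called higher and 26.2% lower. Pdgfra and Pdgfrb, receptors of such precursors, rose by 1.04 and 3.32 and Dcn by 1.76, all with the block. The value of Col1a1 with the block, 1.83, is a description. Col1a1 had 2929 counts with DMSO and 13654 with the combination in A1005, and at most 9 in any library of the other lines. It passed the filter on low counts only with the help of PD173074 and combination libraries, where it was high. Its calls with the block, under the combination and under PD173074, thus give no support. Dcn had 72.4 and 205 CPM in A1471, and at most 20.9 CPM in the other lines. With PD173074 alone Pdgfrb, Col1a1 and Dcn were also called higher with the block, where 2.14% of all genes were called. The summed level of all 8 markers was 141 to 434 CPM with DMSO, 264 to 737 CPM with PD173074 and 351 to 955 CPM with the combination. Pi16 and Dpp4 of early precursors reached at most 148 counts and 1 count, and Dlk1 was at 0. The part of these transcripts in the values of Plin4 and Fabp4 was not tested.

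The genes most like Plin4 were found over the 12 libraries by Pearson correlation of log2 CPM after the mean of each line was subtracted, among the 11017 genes whose average log2 CPM was 1 or more. They were Pik3r1 (r = 0.99), Hlf (0.99), Tgm2 (0.98), Abhd5 (0.98) and Ercc4 (0.98). These values are descriptions over libraries that share lines and treatments. Pik3r1, the regulatory subunit of PI3-kinase, had 93.2, 50.8 and 77.6 CPM with DMSO, 187, 145 and 154 CPM with PD173074 and 302, 343 and 213 CPM with the combination. On the same measure Cebpa ranked 145 of 11017 (r = 0.93), Plin3 1878 (0.78), Plin2 2486 (0.73) and Fabp4 10256 (-0.84).

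Neighbours of Plin4 were listed to see whether the change covered the locus. Within 100 kb 14 other genes are annotated, and 11 were tested in the combination against DMSO. Of these 3 passed unpaired (Ubxn6 higher, Chaf1a and Sema6b lower), where 14.4% of all genes were called. With the block 7 passed, 4 higher (Lrg1 among them) and 3 lower, where 54.8% of all genes were called. The median unpaired log2 fold change was -0.02. Hdgfl2, which overlaps 17 bases of Plin4 exon on the opposite strand, had 0.02 ± 0.14 (edgeR unpaired, adjusted p 0.96). Lrg1, a secreted glycoprotein 9.88 kb away, had 6, 7 and 1 counts in vehicle spheres against 33, 255 and 10 under both inhibitors. Its log2 difference of 4.19 is a description, as it passed the filter on low counts through the PD173074 and combination libraries, where it was high. For the same reason the call of Lrg1 with the block gives no support. Sema6b, a semaphorin 13.3 kb away, fell by 2.28 ± 0.27 (edgeR unpaired, adjusted p 0.00092).

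**Figure D5:**
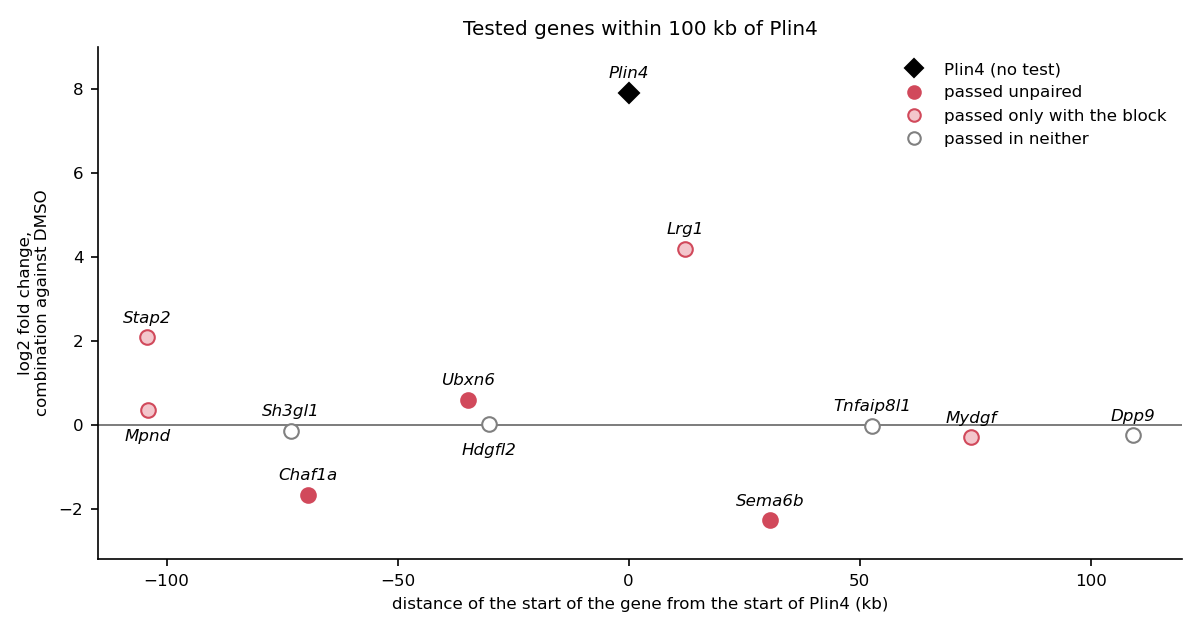
Log2 fold change of the combination against DMSO (edgeR, unpaired) for Plin4 and the 11 tested genes within 100 kb, by distance in kb from the Plin4 start to the start of each gene. Neighbours range from -2.28 (Sema6b) to 4.19 (Lrg1) on both sides of 0, and Plin4 is at 7.90.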

How the data were processed

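Total RNA of 12 tumoursphere cultures was sequenced, and the deposited file holds counts: whole numbers of reads per gene, not normalised, which the authors made with bcl2fastq, STAR (mouse build mm10) and HTSeq, as the submitters' processing notes list. Versions, annotation release and strand setting are not given in the sources used here. The table held 55573 gene identifiers, of which 55394 were found in the annotation used for positions and merged exon lengths, and 0 columns belonged to other samples. Among 66 pairs of libraries 0 held the same values, and chi-square divided by its degrees of freedom was at least 4.9.

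Genes were kept by the edgeR filter on low counts (minimum 10, total 15), which left 13836. Libraries were scaled by the trimmed mean of M values, and all 12 were fitted together with edgeR 4.0.16 (R 4.3.3), unpaired as in the study's methods, with quasi-likelihood tests and Benjamini-Hochberg adjustment over all genes tested (threshold 0.05). Log2 ratios within a line used a prior count of 2. Alternatives were a block for the line, the DESeq2 test (version 1.42.0), its size factors, total counts alone, no filter, the compared groups alone, a log2 fold of at least 1.5, and each line left out. The block was also fitted with each line left out. The contrast of PD173074 with Crizotinib was chosen after seeing the data. The line pairs the libraries: deviations from treatment means correlated at 0.766 to 0.962 (mean 0.871) in 18 pairs of the same line and at -0.422 on average in 36 pairs of different lines. Scripts were tested on simulated data.

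The 10 genes and all lists were chosen with earlier results of these data known. The genes named were the 10 members, up to 4 genes of each list with the smallest unpaired p for the combination against DMSO, Adipoq, Plin1, Cidec and Lep, the 5 genes most like Plin4 and its 4 nearest neighbours. Any other listed or neighbouring gene, and the cell type markers, were named after their values were seen. Counting intervals are exact binomial (95%), and 3 counts stand in for a count of 0. Promoter windows are from RefSeq (GRCm38.p6).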

Additional observations from a re-analysis of the deposited data

Results flagged for a closer look

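Lines moved in opposite directions beyond counting error for 3 of the 10 genes, in 9 combinations of gene and comparison, and whether the lines differ was not tested because each line had 1 library per treatment. Cebpd was higher in A1471 and lower in A1005 each time. The log2 changes of its lines spanned 2.11 with the combination against DMSO (from -0.64 to 1.47), 2.34 with PD173074 against DMSO, 2.12 with the combination against Crizotinib and 2.35 with PD173074 against Crizotinib, and A1129 was also higher in both comparisons of PD173074. The A1471 changes start from low levels of Cebpd in that line (1.52 CPM with DMSO and 1.29 with Crizotinib).

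Cebpb spanned less on the log2 scale. With Crizotinib against DMSO it was higher in A1129 and lower in A1005, a span of 0.41, and with PD173074 against DMSO it was higher in A1471 and lower in A1005, a span of 0.63. With the combination against Crizotinib it was higher in A1005 and lower in A1129, a span of 0.72, and with PD173074 against Crizotinib it was higher in A1005 and A1471 and lower in A1129, a span of 0.58. Plin3 with PD173074 against Crizotinib was higher in A1471 and lower in A1005, a span of 0.54.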

How the results depend on the processing

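Of 418 values of single genes under other settings, 357 kept their direction and their side of the threshold, 40 gained a call, 11 lost one, 4 moved without a test and 6 changed sign. Among the 9 genes other than Plin4, the numbers called with the cell line as a block were 4 (combination against DMSO), 1 (PD173074 against DMSO), 4 (combination against Crizotinib), 2 (combination against PD173074), 2 (additivity) and 1 (PD173074 against Crizotinib), against 1, 0, 1, 1, 0 and 0 unpaired. With the block and A1005, A1129 or A1471 left out, they were 4, 4 and 4 for the combination against DMSO, 4, 4 and 4 against Crizotinib, and 3, 0 and 2 against PD173074, 3 for additivity without A1005, and 1, 1 and 1 for PD173074 against Crizotinib. The block changed no call for Crizotinib against DMSO.

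Unpaired and with 1 line left out, the numbers ranged from 0 to 2 for the combination against DMSO, from 0 to 2 against Crizotinib and from 0 to 1 against PD173074. All 3 comparisons with the combination gave 0 when fitted on the compared groups alone (Plin3, adjusted p 0.063, 0.076 and 0.14) and 0 when a log2 fold of at least 1.5 was also asked for. DESeq2 gave 2 for the combination against Crizotinib, and keeping low counts gave 0 for the combination against PD173074. The cause of these differences was not tested, except that fits with fewer libraries have fewer degrees of freedom.

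The log2 fold change of Cebpd with the combination changed sign, from -0.44 to 0.047 with the block, to 0.60 and 0.021 with the block and without A1005 or A1129, and ranged from -0.57 to 0.26 unpaired with 1 line left out. That of Plin4 with Crizotinib ranged from -0.34 to 0.99 with 1 line left out and was -0.35 with the block and without A1129. Plin4 with the combination was 5.14 without A1129, and 5.09 with the block. Depth limits Plin5, Pparg outside A1129, Lpl outside A1005 and Plin4 in A1471, where counts were 0 to 16.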

Other observations

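Lipid droplets are also made and secreted by milk-producing cells, whose 7 markers were counted beside those of fat cells. Csn2, Wap and Lalba, which encode milk proteins, were at 0 in every library. Xdh, which helps to enclose secreted milk droplets and is also an enzyme of purine breakdown, had 313, 136 and 102 CPM with DMSO in A1005, A1129 and A1471 and 341, 340.5 and 215 CPM with the combination. It rose with the cell line as a block by a log2 fold change of 0.86 ± 0.21 (SE, n = 3 lines; edgeR, adjusted p 0.0054; unpaired 0.70, adjusted p 0.41). Csn3, another milk protein, fell in the blocked fit by 1.38 ± 0.45 (adjusted p 0.026). Plin4 is also transcribed in skeletal muscle, and its 6 markers were mixed. Myog was at 0, Ckm had 1 count in all 12 libraries together and Acta1 at most 9 in any library, whereas Mylpf had 10 to 40 counts per library. Tnnt3, a fast-muscle troponin, had 173, 350, 90 and 228 counts in A1129, the line with the most Plin4, with DMSO, Crizotinib, PD173074 and the combination, and at most 7 in the other lines. Des had 24 to 66 counts in A1005 and at most 2 elsewhere. The part of muscle transcripts in the Plin4 values was not tested.

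Among 6 mesenchymal markers, of which 5 were tested, Twist1 fell with the combination from 125, 115 and 100.2 CPM to 61.0, 53.8 and 44.5 CPM (log2 fold change -1.09 ± 0.15, edgeR unpaired, adjusted p 0.0016), and Zeb2 rose by 0.51 with the block. Fn1 was called in neither fit, and its lines differed in direction. Under both inhibitors A1471 stood at 5086 CPM (vehicle 527), A1005 at 1527 (vehicle 1234) and A1129 at 377 (vehicle 481). Among 6 epithelial markers, of which 2 were tested, Krt18 fell with the block by 0.996 ± 0.14 (adjusted p 0.000225).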
